A study of Mus musculus with 64 samples.

Results

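The hypothalamus of mice that had gone through chronic stress was compared with that of unstressed mice, gene by gene across the transcriptome. The comparison took every hypothalamus library of the series, 16 of 64 libraries, and its table held 16155 genes, of which 14539 were tested. The 8 UCMS libraries came from male BALB/c mice aged 28 weeks after a 9-week course of UCMS (unpredictable chronic mild stress), a schedule of varied mild stressors used as a model of major depression. The 8 control libraries came from male BALB/c mice of the same age that were left unstressed. The labels name no transgene or mutation in either group and give 1 animal per library. Tissue of all animals was collected between ZT12.5 and ZT14.5 (ZT, hours after lights on), which in the stressed mice was 14 to 16 hours after the last stressor. Prefrontal cortex and hippocampus of the same animals, 32 further libraries, served only for values side by side.

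The hypothalamus holds small groups of neurons that each make their own peptide. Neurons of the paraventricular nucleus release corticotropin-releasing hormone, which drives the pituitary and through it the adrenal gland to secrete glucocorticoids. Glucocorticoids then act back on brain and pituitary through 2 nuclear receptors and switch a known set of target genes. Other hypothalamic neurons set water balance, feeding, body temperature, sleep and the daily clock, so the tissue stands where stress, sleep and metabolism meet.

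Values were log2 normalized levels, called levels here, and differences are UCMS minus control on that log2 scale. The levels of the table ran over one shared distribution in all libraries, so sequencing depth is unknown. The spread between libraries, which holds counting error as well as differences between animals, sets the precision. Correlations between libraries across genes ran from 0.891 to 0.981. Of 20 listed hypothalamic region factors, 16 were tested, those above a filter on low levels. Their mean level lay at 3.62 to 4.62 in UCMS and at 3.48 to 4.82 in control libraries, where the median level of the table was 4.42. As the 16 were kept for their level, this mean is no test of their presence. Some libraries stood apart from the others of their group. Hemoglobin RNA was high in UCMS 6, UCMS 8, control 1 and control 7, with Hbb-bs, adult beta-globin, which shares reads with near-identical globin copies, at 14.03 to 14.22 against 4.02 to 8.20 in the other 12 libraries. Those 4 libraries lay at one end of the first principal component, which held 31.4% of the variance, and each group had 2 of them. Their mean levels of cortex and hippocampus markers were also the highest of all libraries, at 5.44 to 6.09 against 5.08 in the next. The same held for immediate early genes, described further on, at 5.55 to 5.73 against 5.35 in the next. What set these 4 libraries apart was not tested. Control 5 and UCMS 1 had the lowest Pomc and Agrp of their groups and the highest Prkcd. UCMS 7 had the lowest Avp and Oxt of all libraries, and UCMS 2 the highest levels of several meningeal and interferon genes. Because tissue was measured in bulk, fewer cells of a type and less RNA per cell cannot be told apart in any result here.

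No gene passed the test across the transcriptome. By limma with Benjamini-Hochberg adjustment, 0 of 14539 genes were called (0%), and the smallest adjusted p was 0.999988. At an unadjusted p under 0.05 there were 308 genes (2.12%), 138 higher in UCMS (0.949%) and 170 lower (1.17%). In no gene did all UCMS libraries lie on one side of all control libraries (0%). The same fit called 0 genes in hippocampus and 0 in prefrontal cortex, where 414 of 14015 genes (2.95%) and 308 of 14127 genes (2.18%) had an unadjusted p under 0.05. Differences between the hypothalamus groups were small for most genes: the median absolute difference was 0.0481 and the median standard error 0.0823. The 95% interval of the difference lay within ±0.5 for 12888 genes (88.6%) and within ±1 for 97.6%. An absolute difference above 0.5 was seen in 68 genes and above 1 in 3 genes, Avp, Oxt and Ucn3, none with an unadjusted p under 0.05. The SD between libraries was higher in UCMS in 44.3% of genes. The genes described next were therefore named by rank or by role and not because they passed the test.

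The gene with the smallest unadjusted p was Smco4 (Entrez 170748, GRCm38 chromosome 9, 15493432 to 15545260), which encodes a small single-pass membrane protein. Its level was 4.18, 4.31 and 4.57 in UCMS (lowest, median and highest) and 4.48, 4.63 and 4.998 in control hypothalamus. Of the 8 UCMS libraries, 6 lay below all control libraries, and the groups overlapped in the others. The difference was -0.37 (SE 0.0873, 95% interval -0.56 to -0.19, unadjusted p = 0.000564, adjusted p = 0.999988). In hippocampus the same gene differed by -0.08 between UCMS and control.

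A pair of genes of acidic compartments had higher means in UCMS. Hyal1 (Entrez 15586, chromosome 9, 107576927 to 107581710), a lysosomal hyaluronidase, had levels of 4.64, 4.89 and 5.33 in UCMS and 4.25, 4.58 and 4.86 in control, a difference of 0.31 (SE 0.0949, unadjusted p = 0.00505). All 8 UCMS libraries lay above the control median, and 5 above every control. Atp6v0a4, a subunit of the vacuolar proton pump, had levels of 3.62, 3.95 and 4.28 in UCMS and 3.11, 3.42 and 4.12 in control, a difference of 0.45 (SE 0.142, unadjusted p = 0.0056).

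The other genes described among those with the smallest unadjusted p differed by less. Mis12, a kinetochore protein, differed by 0.20. Lower means in UCMS were found for Zdhhc4, a palmitoyltransferase, at -0.23, Dhrs7b at -0.19, Tbc1d10a, a Rab GTPase-activating protein, at -0.19, and Vps37c, a subunit of the ESCRT-I sorting complex, at -0.17. Among these 5 genes, Mis12 had 7 UCMS libraries above all controls and Dhrs7b 6 below all controls. In hippocampus these 8 genes had differences of -0.09 to 0.10, none past an unadjusted p of 0.05, and the tables were normalized separately, so the regions were not tested against each other.

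**Figure D1:**
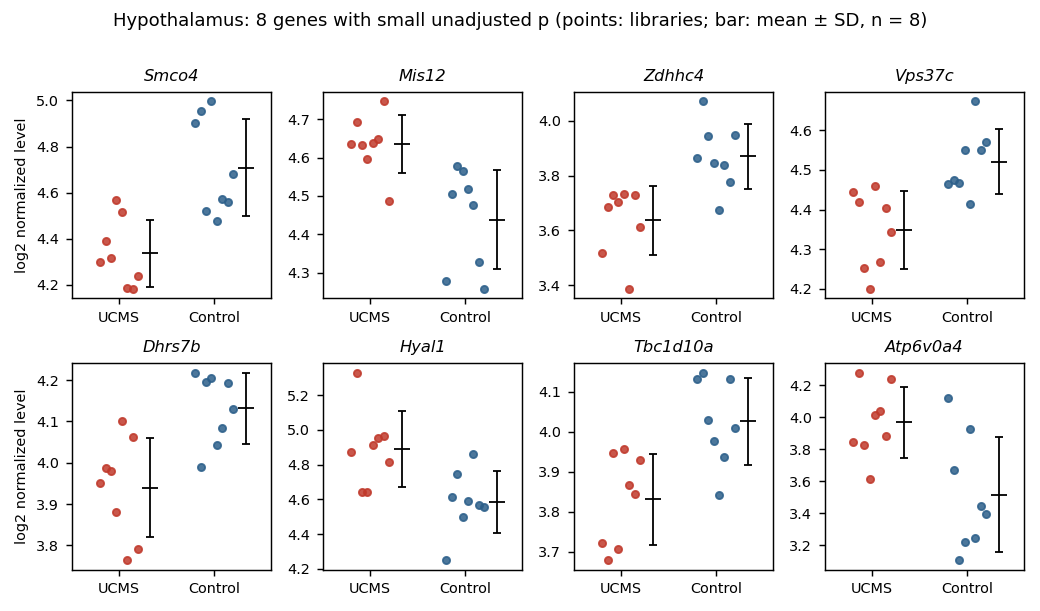
Log2 normalized level (y axis) of 8 genes with small unadjusted p in each hypothalamus library, UCMS left and control right (x axis), with mean ± SD (n = 8 each). The groups overlap in all 8 panels; for Smco4, 6 UCMS points lie below every control point.

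The plot of the genes with small p shows single libraries of both groups, and in each panel at least 1 library lies in the range of the other group.

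Among genes with an unadjusted p under 0.05, 8 of the 10 with the largest absolute differences had higher means in UCMS. Spp1 (Entrez 20750, chromosome 5, 104435118 to 104441050), the secreted matrix protein osteopontin, had levels of 3.17, 3.995 and 5.11 in UCMS and 2.12, 3.27 and 4.18 in control hypothalamus, a difference of 0.85 (SE 0.37, unadjusted p = 0.0342). Col18a1 and Col8a1, collagen chains of basement membrane and vessel wall, differed by 0.53 and 0.46, and Fbln5, an elastic fibre protein, by 0.52. Col18a1, counted among the 8, had a control mean under the filter on low levels and was tested through its UCMS levels. Foxd2, a forkhead transcription factor, differed by 0.57, Adam4, of the ADAM protease family, by 0.48, Slc35g1, a solute carrier, by 0.46, and Sult1a1, a phenol sulfotransferase, by 0.46. A pair of transcription factors had lower means in UCMS: Sp8, a factor of interneuron progenitors, differed by -0.48, and Meis2, a homeodomain factor, by -0.47. Meis2 was lowest in UCMS 2, at 2.50 against 3.48 in the next lowest UCMS library. Col18a1 was highest in the same library, at 4.59 against 3.72 in the next highest. Meningeal and smooth muscle markers, given further on, also had higher means in UCMS, and their part in the matrix genes was not tested.

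Vasopressin and oxytocin, the hormones of the magnocellular neurons, had mean differences of about 1 log2 unit, and both moved by over 1.5 times when 1 library was left out. Avp (Entrez 11998, chromosome 2, 130580620 to 130582554) had levels of 3.38, 8.61 and 10.19 in UCMS and 8.15, 9.17 and 10.10 in control hypothalamus, a difference of -1.11 (SE 0.747, 95% interval -2.68 to 0.47, unadjusted p = 0.157). Oxt (Entrez 18429, chromosome 2, 130576173 to 130577054) had levels of 2.25, 6.84 and 8.30 in UCMS and 6.44, 7.14 and 9.01 in control, a difference of -1.002 (SE 0.708, unadjusted p = 0.175). The lowest value of each was UCMS 7, in which both lay far under every other library. Without that library the differences were -0.45 for Avp and -0.40 for Oxt. Apart from it, 2 UCMS libraries lay below all controls for Avp and 2 for Oxt. Oxtr, the oxytocin receptor, had 4.97 ± 0.34 in UCMS and 5.25 ± 0.39 in control (SD, n = 8 each), a difference of -0.28 (unadjusted p = 0.114). The list of this system had 7 tested genes, 4 above 0 and 3 below, with a median difference of 0.0161, against 50.5% above 0 and a median of 0.00075 over all genes tested.

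Releasing hormones reach the pituitary through the portal vessels; Crh, Trh and Sst had lower means in UCMS and Ghrh a higher one, all within the spread between animals. Crh (Entrez 12918, chromosome 3, 19693401 to 19695396), the hypothalamic trigger of the stress axis, had levels of 2.85, 3.81 and 4.93 in UCMS and 2.98, 4.08 and 5.10 in control, a difference of -0.16 (SE 0.305, 95% interval -0.80 to 0.49, unadjusted p = 0.61). Without control 5, UCMS 1, UCMS 2 and UCMS 7 the difference of Crh was 0.23, so its direction turned with the libraries used. Trh, which drives the thyroid axis, had levels of 4.49, 5.79 and 6.61 in UCMS and 5.21, 5.85 and 6.71 in control, a difference of -0.35 (unadjusted p = 0.244), which was -0.19 without UCMS 7. Sst, somatostatin, which restrains growth hormone, had 7.86 ± 0.41 in UCMS and 8.02 ± 0.32 in control (SD, n = 8 each), and its difference of -0.16 was -0.09 without UCMS 7. Th, the dopamine-synthesis enzyme of the tuberoinfundibular neurons, had 4.56 ± 0.73 in UCMS and 4.55 ± 0.77 in control. Ghrh, growth hormone-releasing hormone, was under the filter on low levels and was not tested; its level was 1.68, 3.30 and 3.88 in UCMS and 1.80, 3.05 and 3.86 in control. Gnrh1 and Kiss1 were not analysed here. Of 13 tested genes of releasing hormones and their receptors, 4 lay above 0 and 9 below, with a median of -0.0231. The median was 0.0329 without UCMS 1, and 0.0289 with 7 of 13 genes above 0 without control 5, UCMS 1, UCMS 2 and UCMS 7.

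The feeding circuit of the arcuate nucleus pairs neurons that drive eating, marked by Agrp and Npy, with neurons that restrain it, marked by Pomc and Cartpt. Agrp had levels of 1.21, 3.52 and 4.51 in UCMS and 0.59, 3.16 and 4.07 in control, a difference of 0.43 (SE 0.482, unadjusted p = 0.383). Because the control mean of Agrp lay under the filter on low levels, it was tested through its UCMS levels. Npy had 5.11 ± 0.65 in UCMS and 4.93 ± 0.67 in control (SD, n = 8 each), a difference of 0.18 that was -0.0124 without control 5. Pomc (Entrez 18976, chromosome 12, 3954951 to 3960642) had levels of 2.75, 5.08 and 5.66 in UCMS and 1.48, 5.09 and 6.01 in control, a difference of -0.05 with a wide 95% interval of -1.26 to 1.15. The lowest UCMS value of Agrp and Pomc was UCMS 1 and the lowest control value control 5. Leaving out control 5 alone gave 0.10 for Agrp and -0.52 for Pomc, and leaving out UCMS 1 alone gave 0.74 for Agrp and 0.23 for Pomc, so the direction for Pomc turned with the library left out. Cartpt had 6.11 ± 0.31 in UCMS and 6.03 ± 0.52 in control.

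Bdnf (Entrez 12064, chromosome 2, 109674700 to 109727007), the neurotrophin that in the ventromedial hypothalamus restrains feeding, was the 1 gene of 17 in the feeding list with an unadjusted p under 0.05, beside 0.949% of all genes in that direction. Its level was 4.76, 5.08 and 5.40 in UCMS and 3.95, 4.73 and 5.06 in control hypothalamus. All 8 UCMS libraries lay above the control median and 4 above every control. The difference was 0.35 (SE 0.14, 95% interval 0.06 to 0.65, unadjusted p = 0.0215). It was 0.03 in hippocampus and 0.02 in prefrontal cortex. Control 5 held the lowest value, and without it the difference was 0.25. The feeding list had 17 tested genes, 11 above 0, with a median of 0.0494 (-0.0404 without control 5).

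Peptides and enzymes of the sleep and wake circuit had higher means in UCMS in most cases, by little. Hcrt, the wake-promoting orexin precursor of the lateral hypothalamus, had levels of 7.74, 8.47 and 8.72 in UCMS and 7.60, 8.37 and 8.60 in control, a difference of 0.14 (SE 0.15, unadjusted p = 0.381). Pmch, the precursor of melanin-concentrating hormone, which promotes REM sleep, had levels of 8.82, 9.66 and 9.98 in UCMS and 8.59, 9.45 and 9.86 in control, a difference of 0.13 (unadjusted p = 0.486). The groups overlapped across nearly their whole range for both. Gal, galanin, which marks sleep-active preoptic neurons, differed by 0.17 and Hdc, the histamine-synthesis enzyme of the tuberomammillary nucleus, by 0.17. Without control 5 these were 0.00561 for Gal and 0.0668 for Hdc, and without control 1 the differences were 0.0399 for Hcrt and 0.00868 for Pmch. The list had 14 tested genes, 11 above 0, with a median of 0.118, and no member had an unadjusted p under 0.05. Its largest difference, 0.58, was that of Ptgds, prostaglandin D synthase, which makes a sleep-promoting prostaglandin and is also a meningeal marker. It was 0.30 without UCMS 2 and 0.21 without control 5, UCMS 1, UCMS 2 and UCMS 7.

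**Figure D2:**
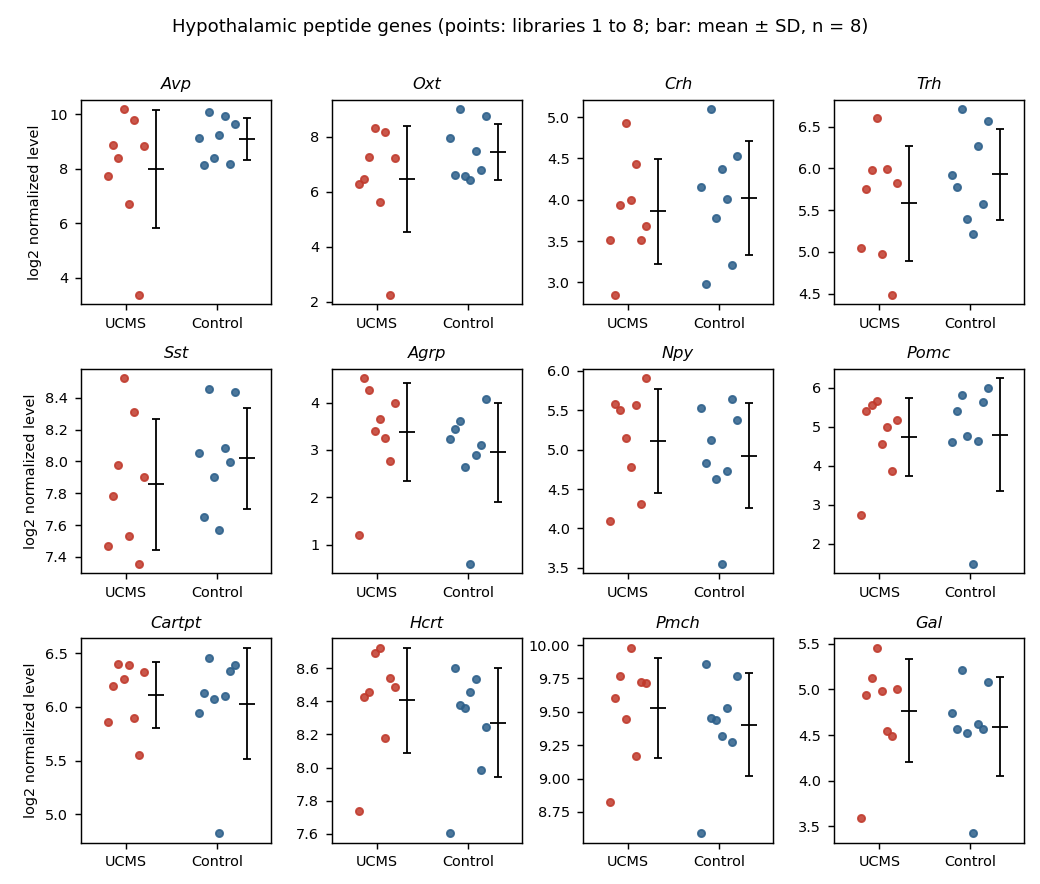
Log2 normalized level (y axis) of 12 peptide genes in each hypothalamus library, UCMS left and control right (x axis), with mean ± SD (n = 8 each). UCMS 7 lies far below the rest for Avp (3.38) and Oxt (2.25), and control 5 for Pomc (1.48) and Agrp (0.59).

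The plot of peptide genes shows that for all 12 peptides the group means lay closer together than the lowest and highest library of either group.

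The stress axis itself was described by its hormones, receptors and chaperones. Of 20 tested genes, 9 lay above 0 and 11 below, with a median of -0.0129, and none had an unadjusted p under 0.05. Nr3c1, the glucocorticoid receptor, had levels of 5.63, 5.75 and 5.87 in UCMS and 5.68, 5.76 and 6.05 in control, a difference of -0.03 (SE 0.057, 95% interval -0.15 to 0.09). Nr3c2, the mineralocorticoid receptor, had 4.25 ± 0.25 in UCMS and 4.27 ± 0.29 in control (SD, n = 8 each). Fkbp5, the co-chaperone that lowers the receptor's affinity for hormone, had levels of 4.14, 4.39 and 4.69 in UCMS and 4.01, 4.32 and 4.46 in control, a difference of 0.15 (SE 0.0847, unadjusted p = 0.0881). Ucn3, the urocortin ligand of the type 2 receptor for corticotropin-releasing hormone, had the largest mean difference of any tested gene. Its level was 0.52, 3.33 and 4.72 in UCMS and 0.91, 4.57 and 5.33 in control, a difference of -1.18 (SE 0.717, 95% interval -2.69 to 0.34, unadjusted p = 0.12). Both groups ran over more than 4 log2 units, with UCMS 5, UCMS 7 and control 7 under 1. The difference was -0.48 without control 5, UCMS 1, UCMS 2 and UCMS 7 and -2.09 without the 4 libraries rich in hemoglobin, of which control 7 is one. The UCMS mean of Ucn3 lay under the filter on low levels, so it was tested through its control levels. Ucn3 was described after its values were seen.

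Genes known to respond to glucocorticoids had higher means in UCMS in 22 of 29 tested members, against 50.5% of all genes, with a median of 0.0994 against 0.00075. Of them, 2 had an unadjusted p under 0.05, both higher in UCMS, beside 0.949% of all genes in that direction. Fam107a (Entrez 268709), an actin-binding protein induced by stress, had levels of 7.15, 7.31 and 7.52 in UCMS and 6.97, 7.17 and 7.45 in control, a difference of 0.16 (SE 0.0659, unadjusted p = 0.0252). The UCMS libraries lay above the control median in 7 of 8 cases. The difference of Fam107a was 0.11 in hippocampus (unadjusted p = 0.0248) and 0.03 in prefrontal cortex. Sult1a1, the sulfotransferase named above, was the other, with 3.68 ± 0.47 in UCMS and 3.22 ± 0.42 in control (SD, n = 8 each). Sgk1 (Entrez 20393), a kinase that regulates ion transport, had levels of 4.25, 5.22 and 5.56 in UCMS and 3.93, 4.86 and 5.31 in control, a difference of 0.36 (SE 0.21, 95% interval -0.09 to 0.80, unadjusted p = 0.107). It was 0.20 in hippocampus and 0.18 in prefrontal cortex. Tsc22d3, which encodes the leucine zipper protein GILZ, had 5.89 ± 0.20 in UCMS and 5.82 ± 0.09 in control. The list's median kept its sign whichever library was left out. Without control 5, UCMS 1, UCMS 2 and UCMS 7 it was 0.0793, with 18 of 29 genes above 0. Arrdc2, a member above 0, had a control mean under the filter on low levels and was tested through its UCMS levels.

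The glucocorticoid receptor binds DNA as a dimer at paired hexamers. The motif searched was AGAACA, then 3 bases of any kind, then TGT, on both strands and in windows of 250 bases before to 50 bases after gene starts (RefSeq, GRCm38.p6). It occurred in 136 of 32851 windows (0.414%) and in windows of 2 of the 29 listed members that could be matched, Sgk1 and Fam107a. A gene can have several windows, so the share of windows and the count of genes cannot be compared directly. Both are shown because they are the list members with the motif near a start; capitals mark the matches, which in Sgk1 are 2 overlapping matches on opposite strands, beginning 189 bases before the start, and in Fam107a 1 match beginning 116 bases before it. The Sgk1 window is chr10:21993640-21993939 on the plus strand and the Fam107a window chr14:8309730-8310029 on the minus strand, each written 5′ to 3′ along its gene.
Sgk1: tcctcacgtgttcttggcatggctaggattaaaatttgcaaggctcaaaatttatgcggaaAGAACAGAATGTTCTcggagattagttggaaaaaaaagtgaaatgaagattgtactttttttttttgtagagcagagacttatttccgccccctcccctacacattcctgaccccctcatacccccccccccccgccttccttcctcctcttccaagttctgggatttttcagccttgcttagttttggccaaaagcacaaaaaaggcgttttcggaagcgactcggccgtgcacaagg
Fam107a: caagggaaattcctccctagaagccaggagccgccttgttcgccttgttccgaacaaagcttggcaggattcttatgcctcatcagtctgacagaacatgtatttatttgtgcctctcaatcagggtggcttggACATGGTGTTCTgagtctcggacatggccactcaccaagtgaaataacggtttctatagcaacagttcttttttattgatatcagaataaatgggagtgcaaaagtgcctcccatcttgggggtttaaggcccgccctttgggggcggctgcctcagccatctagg
Fam107a has a second listed start a few bases away whose window holds the same match. A match describes these letters only and says nothing of binding in these animals.

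Heat shock proteins and chaperones, which fold other proteins and hold steroid receptors ready for hormone, had higher means in UCMS in 25 of 33 tested members, with a median of 0.0400. The differences were small beside the spread. An unadjusted p under 0.05 was found for 1 of the 33, higher in UCMS, where 0.949% of all genes were called in that direction. Hsph1 (Entrez 15505, chromosome 5, 149614287 to 149636376), an exchange factor of the HSP70 chaperones, had levels of 6.64, 6.73 and 6.87 in UCMS and 6.50, 6.64 and 6.68 in control. Every UCMS library lay above the control median, and 6 of 8 above all controls. The difference was 0.12 (SE 0.0414, 95% interval 0.03 to 0.20, unadjusted p = 0.0119), and it was 0.00388 in hippocampus and 0.03 in prefrontal cortex. Hspb1, a small heat shock protein, differed by 0.51 (SE 0.24, unadjusted p = 0.0504). Stip1, which bridges the chaperones of the steroid receptor complex, differed by 0.10 (unadjusted p = 0.0514), and Hsp90aa1, the inducible cytosolic HSP90, by 0.08 (unadjusted p = 0.0608). Hspb1 was highest in UCMS 6, at 5.46, a library rich in hemoglobin; its difference was 0.33 without UCMS 6 and 0.24 without the 4 libraries rich in hemoglobin. It is also made by vessel cells, whose markers are given further on.

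**Figure D3:**
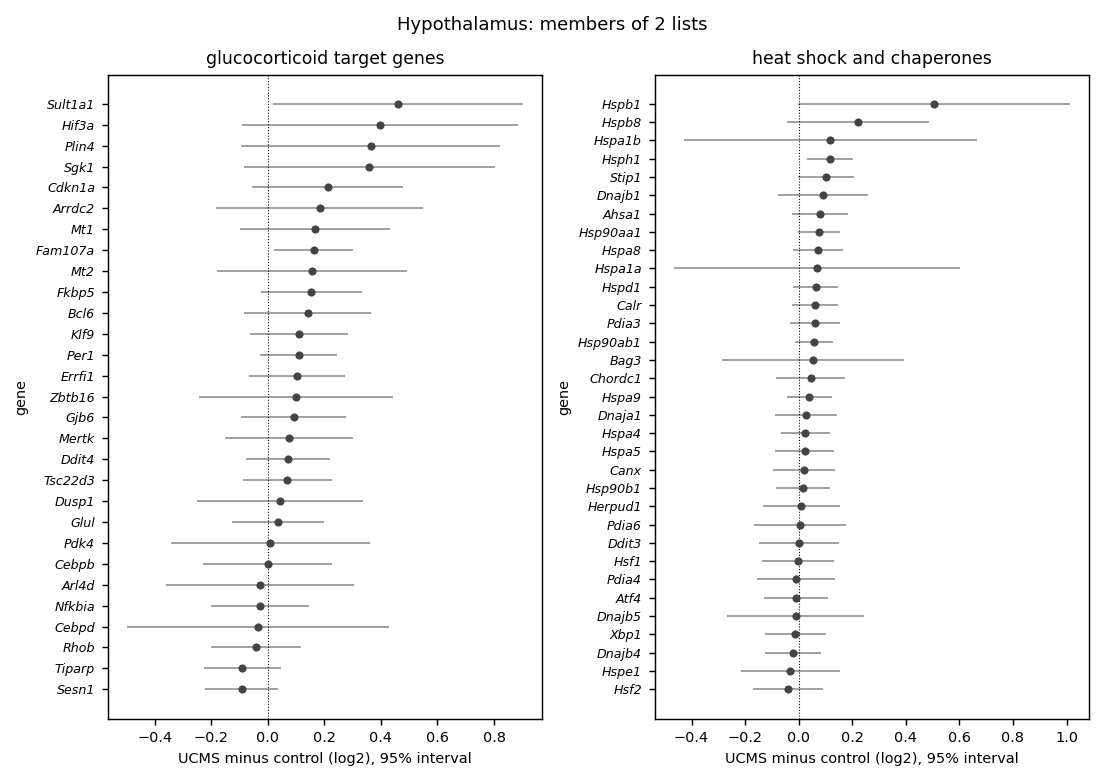
UCMS minus control difference on the log2 scale (x axis) with its 95% interval for each tested member (y axis) of the glucocorticoid target list (29 genes, left) and of the heat shock and chaperone list (33 genes, right). Points lie right of 0 for 22 and 25 members, and the interval excludes 0 for Fam107a, Sult1a1 and Hsph1.

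The plot of both lists shows most points to the right of 0 and nearly all intervals crossing it.

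Heat shock factor binds inverted repeats of GAA. The element searched was GAA, TTC and GAA in a row, each 2 bases of any kind apart, on both strands and in the same windows. It occurred in 198 of 32851 windows (0.603%) and in windows of 4 of 28 matched members of the list, Chordc1, Hspd1, Hspe1 and Hsph1. Here too the share counts windows and the list figure counts genes. The Hsph1 window chr5:149636266-149636565, on the minus strand and written 5′ to 3′ along the gene, is shown because Hsph1 was the list member with the smallest unadjusted p; capitals mark the match, which begins 15 bases after the start.
Hsph1: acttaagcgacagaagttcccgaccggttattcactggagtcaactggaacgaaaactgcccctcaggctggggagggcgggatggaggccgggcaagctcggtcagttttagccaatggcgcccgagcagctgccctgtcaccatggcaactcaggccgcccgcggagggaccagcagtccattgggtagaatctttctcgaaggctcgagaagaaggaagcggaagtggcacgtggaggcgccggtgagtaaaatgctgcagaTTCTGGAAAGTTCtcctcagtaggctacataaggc
A second listed Hsph1 start lies close by, and its window holds the same match.

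Clock genes were compared because all tissue came from one short window of the day and because glucocorticoids entrain tissue clocks. Of 24 tested genes, 17 lay above 0, with a median of 0.0536. Per2, a repressor of the core loop, had levels of 3.88, 4.08 and 4.13 in UCMS and 3.72, 3.85 and 4.24 in control, a difference of 0.15 (SE 0.0709, unadjusted p = 0.0532). All 8 UCMS libraries lay above the control median, yet control 1 was the highest of all. Per1, its paralog and a glucocorticoid target, differed by 0.11 (unadjusted p = 0.111). The differences of Per2 were 0.11 in hippocampus and 0.12 in prefrontal cortex, and those of Per1 0.08 and 0.12. Of 9 tested markers of suprachiasmatic neurons, the central clock, 5 lay above 0 (median 0.0792). Vip, their peptide, was under the filter on low levels and not tested, with 1.11, 1.64 and 4.25 in UCMS and 1.10, 2.71 and 4.65 in control.

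Immediate early genes, which rise for minutes to hours after neuronal firing, were spread around 0 at this time after the last stressor. Of 21 tested genes, 8 lay above 0 and 13 below, with a median of -0.0214 and no unadjusted p under 0.05. The mean level of the list was highest in the 4 libraries rich in hemoglobin, and without them its median was 0.0115. Fos had levels of 3.997, 4.43 and 5.69 in UCMS and 3.96, 4.38 and 4.98 in control, a difference of 0.05 (SE 0.204), with its highest value in UCMS 2. Arc, which acts at active synapses, had 5.16 ± 0.46 in UCMS and 5.29 ± 0.53 in control (SD, n = 8 each). Npas4, the activity-dependent factor of neurons, differed by 0.35 (unadjusted p = 0.176), Ier2 by 0.27 (unadjusted p = 0.0617) and Egr3 by -0.50 (SE 0.455, unadjusted p = 0.29). Npas4, a member above 0, had a control mean under the filter on low levels and was tested through its UCMS levels. The 95% interval of the difference of Fos ran from -0.38 to 0.48 and that of Egr3 from -1.46 to 0.46.

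Apoptosis genes were listed because the series' title names apoptotic pathways. Of 26 tested genes listed as pro-apoptotic, 11 lay above 0 and 15 below, with a median of -0.0416. Of 15 listed as anti-apoptotic, 9 lay above 0, with a median of 0.0249. The lists are loose, and Bnip3 (-0.05) was placed in the anti-apoptotic one. No member of either list had an unadjusted p under 0.05. Bax, which opens the outer mitochondrial membrane, had levels of 4.07, 4.29 and 4.60 in UCMS and 4.14, 4.36 and 4.46 in control, a difference of -0.04 (SE 0.0701). Bcl2, its inhibitor, had levels of 5.19, 5.39 and 5.51 in UCMS and 5.16, 5.34 and 5.47 in control, a difference of 0.03 (SE 0.0587, 95% interval -0.09 to 0.15). The smallest p values were those of Casp2, an initiator caspase, at -0.13 (unadjusted p = 0.064), and Ripk1, a kinase of the necrosis and inflammation pathways, at 0.19 (unadjusted p = 0.0692). The pro-apoptotic median was 0.00661 without UCMS 2 and -0.00104 without UCMS 3.

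Ribosomal protein genes had lower means in UCMS in nearly all members, by small amounts. Of 51 tested genes of the cytosolic ribosome, 46 lay below 0 and 5 above, with a median of -0.0521. The mean level over the 51 genes was 6.24, 6.37 and 6.42 in UCMS and 6.34, 6.40 and 6.49 in control libraries, so the groups overlapped. Rpl38, a protein of the large subunit, had 5.35 ± 0.08 in UCMS and 5.46 ± 0.10 in control (SD, n = 8 each) and a difference of -0.12 (SE 0.0495, unadjusted p = 0.0327). It was the 1 member of 51 with an unadjusted p under 0.05, where 1.17% of all genes were called in the lower direction, so the count was near that of all genes. Rps12, of the small subunit, differed by -0.13 (unadjusted p = 0.0545). Ribosomal protein genes have many processed copies in the genome that share reads with them, so single values are uncertain. Without control 5, UCMS 1, UCMS 2 and UCMS 7, the median was -0.0274 and 13 of 51 genes lay above 0. Of 49 nuclear genes of oxidative phosphorylation, which supply the respiratory chain, 19 lay above 0, with a median of -0.0114.

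Neurotransmitter genes showed no common direction. Of 22 tested genes of the GABA system 13 lay above 0 (median 0.0134), of 26 of the glutamate system 15 (median 0.0124) and of 21 of the monoamine system 10 (median -0.0460), with no unadjusted p under 0.05. Steroid and thyroid hormone receptors and enzymes had 5 of 13 above 0 (median -0.00738). Cholesterol synthesis had 10 of 20 above 0 (median 0.00181). Lysosomal and vacuolar ATPase genes had 20 of 29 above 0 (median 0.0264), and 3 of the 29, Hyal1, Atp6v0a4 and Vps37c, had an unadjusted p under 0.05, beside 2.12% of all genes. Those 3 were among the genes already named for the smallest p of the table, and the list was chosen with earlier results known.

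Markers of glial cells differed little between the groups. Astrocyte markers had 9 of 15 above 0 (median 0.0188), and oligodendrocyte precursor markers 7 of 12 (median 0.0129). Microglia markers had 4 of 14 above 0 (median -0.0331), although C1qc, a complement subunit, and Trem2, a microglial receptor, differed by 0.31 (unadjusted p = 0.0608) and 0.25 (unadjusted p = 0.0858). The direction of the microglia list turned with the libraries used: its median was 0.0231 without control 5. Without control 5, UCMS 1, UCMS 2 and UCMS 7 that median was 0.0795, with 10 of 14 above 0. Markers of myelinating oligodendrocytes had 2 of 15 above 0 and 13 below, with a median of -0.0470. Opalin, a membrane protein of central myelin, differed by -0.38 (SE 0.225, unadjusted p = 0.107), by -0.21 in hippocampus and by -0.37 in prefrontal cortex. The mean level of the myelin markers ran from 6.07 to 7.33 in UCMS and from 6.13 to 7.61 in control libraries, and the list's median was 0.0893 without control 5. Markers of tanycytes and ependyma, which line the third ventricle, had 8 of 13 above 0 (median 0.0242), and those of choroid plexus 4 of 8 (median 0.0256). Only 1 pituitary marker was tested, with a difference of 0.152. Endothelial markers had 5 of 12 above 0, with Esam, an adhesion molecule of endothelial junctions, at -0.18 (unadjusted p = 0.0428), the 1 member of 12 under 0.05, beside 1.17% of all genes in that direction.

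Markers of the coverings of the brain and of vessel walls had higher means in UCMS. All 9 tested markers of meninges and fibroblasts, of 14 listed, lay above 0, with a median of 0.380. Of 9 markers of pericytes and smooth muscle 7 did, with a median of 0.148. None had an unadjusted p under 0.05. The meningeal markers Pcolce and Ogn had control means under the filter on low levels and were tested through their UCMS levels. Mgp, a matrix protein, had levels of 3.07, 4.98 and 6.20 in UCMS and 3.30, 3.64 and 4.82 in control, a difference of 0.75 (SE 0.392, unadjusted p = 0.0721). Acta2 and Tagln, contractile proteins of smooth muscle, differed by 0.74 (unadjusted p = 0.084) and 0.71 (unadjusted p = 0.122). The mean level of the 9 meningeal markers was 3.72, 5.10 and 6.43 in UCMS and 3.78, 4.22 and 5.57 in control. UCMS 2 was the highest for Mgp, and without it the list's median was 0.132. Without control 5, UCMS 1, UCMS 2 and UCMS 7 it was 0.0769. With a meningeal score in the model, 0 genes passed after adjustment, as without it. Interferon-stimulated genes, which respond to antiviral signalling, had 11 of 13 above 0 with a median of 0.116, which was -0.00679 without UCMS 2. Oasl2 was 4.43 in that library against 3.51 in the next highest UCMS library. Its control mean lay under the filter on low levels, so it was tested through its UCMS levels. Markers of red blood cells had 4 of 4 above 0 (median 0.266), with the mean over them ranging from 5.20 to 14.37 in UCMS and from 5.21 to 14.53 in control.

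Markers of neighbouring brain regions varied widely between libraries. All 9 tested thalamic markers lay above 0, with a median of 0.256, and the mean over them was 3.90, 4.399 and 6.27 in UCMS and 3.95, 4.13 and 5.64 in control libraries. Among them, Lef1 had a control mean under the filter on low levels and was tested through its UCMS levels. Prkcd, a kinase that marks thalamic relay neurons, was 2.84, 3.60 and 7.82 in UCMS and 2.33, 3.30 and 6.98 in control, highest in UCMS 1 and control 5. Tcf7l2, a transcription factor of the thalamus, differed by 0.34 (SE 0.349), by 0.0981 without UCMS 1 and by 0.51 without control 5. The difference of Prkcd, 0.62, was 0.11 without UCMS 1 and 1.09 without control 5. The list's median was 0.0583 without UCMS 1 and 0.420 without control 5. The mean over markers of cortex and hippocampus was highest in the 4 libraries rich in hemoglobin, and without them the list's median was 0.061. In all libraries 2 of 8 such markers lay above 0, with a median of -0.00975 (-0.275 without control 5, UCMS 1, UCMS 2 and UCMS 7). Their largest difference was that of Tbr1, a factor of glutamatergic neurons, at -0.71 (SE 0.416, unadjusted p = 0.107). The difference of Tbr1 was -0.42 without control 5, UCMS 1, UCMS 2 and UCMS 7. Nr5a1, which marks the ventromedial nucleus, had 2.28, 3.90 and 4.58 in UCMS and 1.29, 4.08 and 4.70 in control, lowest in UCMS 7 and control 5. Of the 16 region factors, 7 lay above 0, with a median of -0.0699. Lhx6, a factor of inhibitory neuron lineages, differed by -0.42, and by -0.16 without those 4 libraries. The part of dissection in any gene's difference was not tested.

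**Figure D4:**
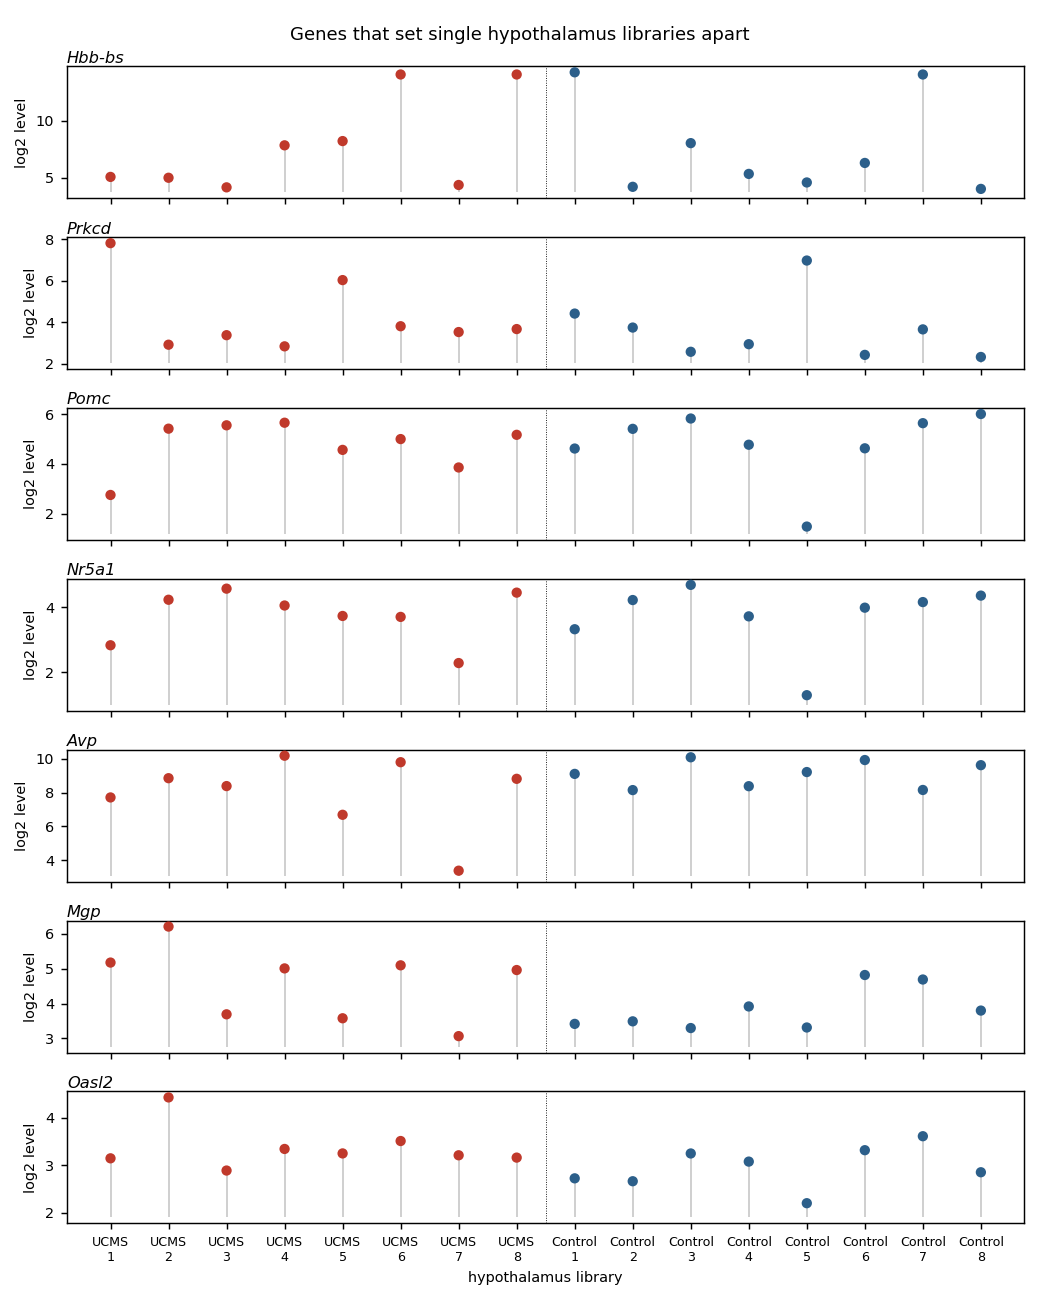
Log2 normalized level (y axis) of 7 genes in each of the 16 hypothalamus libraries (x axis; UCMS 1 to 8 left, control 1 to 8 right of the dotted line). Hemoglobin RNA (Hbb-bs) is high in 4 libraries, 2 of each group; Prkcd is highest and Pomc lowest in UCMS 1 and control 5 within their groups.

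The plot of single libraries shows that the libraries with extreme values were of both groups: those rich in hemoglobin are not those with low Pomc, and UCMS 7, low in Avp, is neither.

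**Figure D5:**
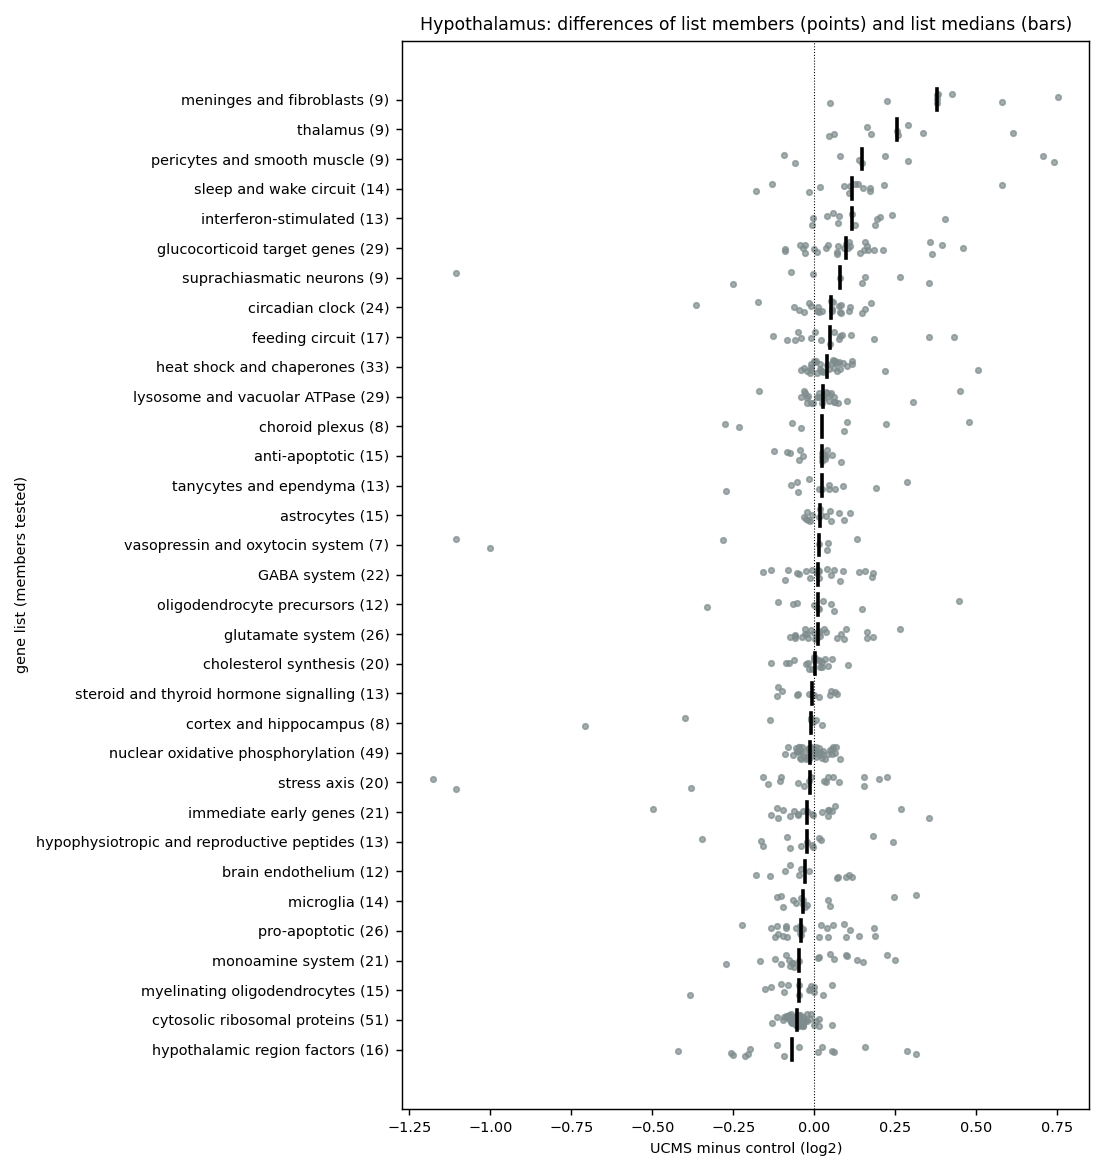
UCMS minus control difference on the log2 scale (x axis) of every tested member (points) of each gene list with at least 7 tested genes (y axis, number tested in brackets), with the list median as a bar. Meningeal markers (0.380) and thalamic markers (0.256) have the highest medians, and the medians of most lists lie within 0.1 of 0.

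The plot of all lists shows single members far from 0, such as Avp and Ucn3, beside medians close to it.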

How the data were processed

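Per the labels' protocols, RNA of dissected mouse hypothalamus was freed of ribosomal RNA and made into directional libraries. The submitters' processing notes name the build GRCm38.p4. Aligner, counter, annotation, strand setting and filters: not given in the sources used here. For this tissue the authors deposited log2 normalized levels in 1 table, which its name calls normalized read counts; that they are log2 values, made alike in distribution between libraries by quantile normalization, was inferred from the values (0.158 to 19.195; all 16 libraries equal within 0.002 at 88.7% of ranks). Whole reads could not be recovered, which leaves depth unknown, so neither a count model nor counting intervals were used. There were 0 columns without a sample and 122 genes without a symbol.

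Groups follow the labels. The deposited levels went into limma 3.58.1 (R 4.3.3), two-sided, with a trend in the prior variance and Benjamini-Hochberg adjustment. The 1616 genes with the lowest means over both groups, 10%, were not tested. A gene near that filter level, 3.12, could be tested through the group in which it was higher. In a simulation of this hypothalamus comparison, 200 of 14539 genes were given a set log2 change. A change of 0.5 was found again in 77% of them and a change of 1 in 95.5%, with 11 and 15 false calls. These shares hold for the simulated data only. They were not taken as the power in the real libraries, some of which stood apart from their group. Prefrontal cortex and hippocampus were fitted alone. The 35 gene lists (671 symbols, 589 tested) are described by counts and medians, with no set test. Members, lists and named genes were chosen with earlier results of these data known. Named genes were those past adjusted p 0.05 or else the 10 smallest unadjusted p, the 10 largest differences at unadjusted p under 0.05, fixed peptide, stress, clock and apoptosis genes, the 3 smallest p of each list and the 10 most variable genes; the text gives a selection, and some genes are not reported here. Ucn3, Prkcd, Nr5a1 and Egr3 were added after their values were seen. Gene positions are those of GENCODE M21 (GRCm38). Alternatives were other filters, no variance trend, library weights, median ratio centring, a meningeal covariate, a replicate block, and leaving out libraries.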

Additional observations from a re-analysis of the deposited data

Results flagged for a closer look

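Single libraries lay far from the other 7 of their group in 18 of 216 groups of 8 examined (8.33%), where the critical value used flags about 1 in 20 by chance. The genes examined are those named in the text, some of them chosen because of such libraries. No cause was tested.

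Control 5 accounted for 9 of them. It was the lowest control library for Agrp (0.594, next 2.644), Pomc (1.484, next 4.619), Cartpt (4.819, next 5.939), Gal (3.419, next 4.525), Bdnf (3.95, next 4.565) and Nr5a1 (1.289, next 3.327), and the highest for Prkcd (6.981, next 4.421). The mean of the feeding list was 4.516 in it, against 5.378 in the next lowest control, and the mean of the thalamic list was 5.644, against 4.670 in the next highest control.

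UCMS 2 was the highest UCMS library for Hyal1 (5.329, next 4.962), Col18a1 (4.595, next 3.724), Fos (5.69, next 4.686) and Oasl2 (4.428, next 3.511), and the lowest for Meis2 (2.504, next 3.482).

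UCMS 7 was the lowest UCMS library for Oxt (2.25, next 5.634). Control 1 was the lowest control for Pmch (8.589, next 9.274) and the highest for Per2 (4.243, next 3.939). Control 2 was the lowest control for Lhx6 (2.184, next 3.491).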

How the results depend on the processing

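The count of genes past an adjusted p of 0.05 was 0 as reported and 0 under every alternative run. The count at an unadjusted p under 0.05, 308 as reported, was 257 with the lowest 25% of genes left out, 348 with no filter, 310 with no variance trend, 389 with library weights, 356 with median ratio centring, 335 when the 4 libraries rich in hemoglobin were left out and 343 with a meningeal covariate. It ran from 262 (without UCMS 2) to 384 (without control 2) when 1 library was left out. Leaving out 3 libraries that stand apart (control 5, UCMS 2 and UCMS 7) gave 291, and leaving out UCMS 1 as well gave 236; both sets were chosen after seeing the data, the larger after the values of the smaller were known.

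Same-numbered UCMS and control libraries did not deviate together (correlations -0.453 to 0.299, 3 of 8 over 0.1, 0 of 8 best with their own number), so the numbers name libraries only. With a replicate block the counts were 0 and 315.

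List medians moved by less than the spread between libraries in 350 of 350 values under other settings and in 558 of 560 with 1 library left out; the exception was the pro-apoptotic list, from -0.0579 to 0.00661. With 1 library left out, the median of 24 of the 35 lists turned its sign for at least 1 library. Differences of 73 named genes kept their sign in 693 of 715 and 1124 of 1159 values. The reversals, all of genes that did not pass, were these. Without 3 libraries: Crh 0.116, Cartpt -0.0150, Th -0.143, Nr3c1 0.00755, Fos -0.0914, Bcl2 -0.0132, Bax 0.0170 and Nr5a1 -0.176. Without 4: Crh 0.231, Th -0.331, Fos -0.0343 and Bax 0.0306. With library weights: Th -0.193, Nr3c2 0.00675 and Nr5a1 -0.0724. Without hemoglobin-rich libraries: Pmch -0.00300, Nr3c2 0.0272, Bcl2 -0.0175 and Nr5a1 -0.0950. With the meningeal covariate: Fos -0.0115, Nr5a1 -0.104 and Hbb-bs -0.193. With 1 library left out the sign also turned for Cartpt (-0.0934 to 0.159), Fos (-0.115 to 0.130), Hbb-bs (-0.638 to 1.19), Npy (-0.0124 to 0.330), Nr3c1 (-0.0489 to 0.00382), Nr3c2 (-0.0844 to 0.0419), Nr5a1 (-0.335 to 0.221), Pomc (-0.525 to 0.233) and Th (-0.138 to 0.186). The cause was not tested.

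Depth is unknown, so counting error cannot be set apart from the spread between animals. The standard error of a gene's difference ran from 0.0444 to 0.251 (5th to 95th percentile). No gene passed, not even Smco4, whose difference was several times its standard error. Changes of about the size of the standard error were therefore not detectable.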
